A study of Mus musculus with 30 samples.

Results

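Gene expression was compared between adipose-derived stem cells of obese and of lean mice killed at 20 weeks, the young arm of a study that also held mice killed at 52 weeks. The members are the 16 young libraries out of 30 in the series, 8 from young obese and 8 from young lean mice. They were chosen by the age class and body condition in the sample titles. All 14438 genes that passed a filter on low counts were tested. Every mouse was a male C57BL6/J, with 1 library per mouse, and housing was 4 to 5 mice per cage. Obese mice were raised from weaning on a lard-based food in which 60% of the energy was fat, and lean mice ate control chow, so the groups differ in diet and in body condition together. The cells of every group came from inguinal fat, were sorted as positive for Sca-1 and CD34 and negative for CD31, CD45 and Ter119, were grown to passage 2 and were frozen by mouse. RNA therefore came from cells that had left the animal and divided in culture. The aged groups, 8 lean and 6 obese mice killed at 52 weeks, entered the fit to share its estimate of spread and are described only in the last comparison.

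Adipose-derived stem cells are mesenchymal progenitors that lie along vessels and septa of fat tissue. They can form adipocytes, osteoblasts and chondrocytes, and they secrete matrix, growth factors and cytokines that act on vessels and immune cells. In obesity this tissue grows by adding fat cells from such progenitors and by enlarging existing ones, and progenitors of obese fat have been studied for altered adhesion, secretion and differentiation.

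The young libraries held 30597765 to 39997009 counts in genes, and levels are given as CPM, the count relative to the scaled total of its library. Libraries of the same group were not evenly spaced. Young obese 1 and 2 lay close together (chi-square per gene 8.18), as did young obese 18, 19, 20, 21 and 23 (6.44 to 22.8). On the first principal component (32% of the variance) young obese 1 and 2 lay furthest out, both at -63.55. Young lean 26 was at 51.55 on the other side. On the second (23.5%) young obese 22 was at -54.21 and young lean 26 at 52.36. Cd34, a sorted marker, was at 26.1 and 27.9 CPM in young obese 1 and 2 and between 0.912 and 2.79 CPM in the other 6 obese libraries. Endothelial and blood markers were low. The 12 endothelial markers summed to 10.6 to 20.7 CPM in lean and 7.69 to 11.3 CPM in obese libraries. The 14 blood and immune markers summed to 18 to 37.6 and 21 to 34.7 CPM, with the haemoglobin genes Hba-a1 and Hbb-bs at 0 in all 16. Higher sums came from 8 adipocyte markers (149 to 1214 CPM in lean and 173 to 822 CPM in obese libraries), Lpl above all. The 9 mesothelial and epithelial markers summed to 118 to 234 and 136 to 172 CPM, nearly all from Krt19 (117 to 233 and 136 to 172 CPM). The 14 progenitor markers summed to 2914 to 3741 CPM in lean and 2944 to 3320 CPM in obese libraries, and 1 of the 14 fell, Lum (described below). The 10 mural markers, which cultured stromal cells also express, summed to 4088 to 9133 CPM in lean and 7032 to 9165 CPM in obese libraries, and 0 of the 9 tested changed.

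Obese and lean cells differed in 1275 of 14438 genes (8.83%) at a Benjamini-Hochberg adjusted p below 0.05 in edgeR's quasi-likelihood test, which is what "called" means below. Of these, 499 (3.46% of genes tested) were higher and 776 (5.37%) lower in obese cells. Most differences were small: the absolute log2 change of called genes had a median of 0.47, and 38 of them rose and 84 fell by more than 1. The groups did not overlap for 125 genes that were higher (0.866%) and 107 that were lower (0.741%) in all 8 obese than in all 8 lean libraries. The number of calls moved with single libraries. Leaving out young lean 26 gave 201 calls, young lean 7 gave 302, young lean 27 gave 322 and young lean 23 gave 716, while leaving out YL1 or YL512, as the labels abbreviate young lean mice, gave 2040 and 2197. Among obese libraries, leaving out mouse 1 gave 405, mouse 2 gave 485, mouse 21 gave 713 and mouse 22 gave 826, and the removal of mice 1 and 2 together left 143. With each of the 16 libraries left out in turn, 187 calls held every time, 90 higher and 97 lower, and these are described first below. The rule for named genes picked 124 called genes, of which 118 are reported. Of these 118 calls 47 held in all 16 leave-one-out fits, while removal of young lean 26 ended 71, of young lean 7 54, of young lean 27 53, of young obese 1 42 and of young obese 2 35, and removal of both of the last pair ended 80.

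Transcript length, taken from the longest annotated transcript of each gene, moved with the groups. Called genes that were higher had a median transcript length of 5419 bases and called genes that were lower 1689 bases, against 3222 bases over all tested genes, and their GC content was 47% and 52% against 49.8%. A slope of log2 CPM deviation on length was computed for each library. It was -0.0582 ± 0.113 log2 per doubling of length in lean and 0.0582 ± 0.0657 in obese libraries (mean ± SD, n = 8 each, two-sided exact permutation p = 0.0214 over 12870 splits). Lean values lay between -0.254 (young lean 26) and 0.108 (YL512) and obese values between 0.00708 (young obese 18) and 0.167 (young obese 1), so the groups overlapped. Without young obese 1 and 2 the difference was 0.0814 (exact permutation p = 0.106). With an offset for length and GC content in the fit, 377 genes were called, 194 higher and 183 lower. Of the 118 reported calls 53 held with the offset and 65 ended. For the genes described below, each paragraph names either those that lost their call with it or those of a list that kept it. The part of length dependence in each result was not tested beyond that offset.

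**Figure D1:**
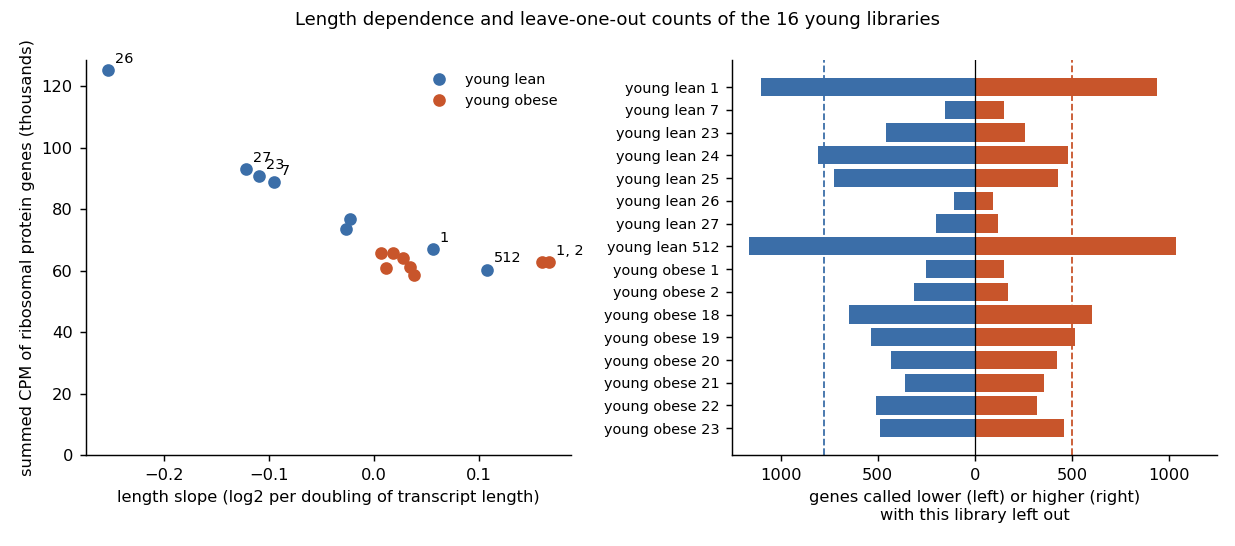
Left, length slope of each young library (horizontal) against the summed CPM of 78 cytosolic ribosomal protein genes (vertical). Right, genes called lower or higher when the library is left out, with dashed lines at 776 and 499 for all 16. Young lean 26 has the steepest negative slope (-0.254) and the highest ribosomal sum (125117 CPM).

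Genes of the secretory pathway were higher in obese cells. The endoplasmic reticulum (ER) folds secreted and membrane proteins, and when unfolded protein accumulates, sensors such as ATF6 switch on chaperone genes through the ER stress response element in their promoters. Of 30 genes of this unfolded protein response, 5 rose and 0 fell, with a median log2 change of 0.17 against -0.02 over all genes. The 5 were Dnajc3, Atf6, Hyou1, Canx and Hsp90b1. Promoter windows of 250 bases upstream of the RefSeq start (GRCm38.p6) were matched for 25 of the 30 by symbol, and Atf6 and Hyou1 were not among them. The element was searched as CCAAT followed by any 9 bases and CCACG, on both strands, and no other motif was searched. It was present in 9 of the 25 windows (36%) and upstream of 35 of 27025 genes in the table (0.13%). The 3 called genes with a matched window all held it, and so did 6 that were not called, among them Hspa5 (log2 0.34, adjusted p = 0.125), Pdia6 (log2 0.03) and Derl3 (log2 0.04). A match describes these letters only. The stretch around the element is shown for the 3 because they were the called genes of the list with a matched window, 5′ to 3′ on the gene's strand, with the fixed bases of the element in capitals.
Dnajc3 (chr14:118937802-118937870, plus strand): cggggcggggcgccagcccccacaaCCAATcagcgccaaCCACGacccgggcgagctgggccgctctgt
Canx (chr11:50325775-50325843, minus strand): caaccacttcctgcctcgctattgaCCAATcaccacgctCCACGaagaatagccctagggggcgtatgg
Hsp90b1 (chr10:86705508-86705681, minus strand): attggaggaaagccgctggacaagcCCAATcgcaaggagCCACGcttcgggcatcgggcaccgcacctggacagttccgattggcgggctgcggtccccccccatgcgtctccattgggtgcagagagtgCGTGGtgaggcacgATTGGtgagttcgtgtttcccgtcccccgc
The centre of the element lay 96 bases upstream of the start in Dnajc3 and 136 bases in Canx. Hsp90b1 held it on both strands, centred 203 and 98 bases upstream, the second copy in reverse.

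Dnajc3 (ENSMUSG00000022136), an ER co-chaperone that also restrains the kinase PERK, lay between 128 and 166 CPM (median 154) in lean and between 173 and 236 CPM (median 184) in obese libraries (log2 0.37 ± 0.08 SE, adjusted p = 0.0123). The groups did not overlap, and the call held in all 16 leave-one-out fits. Atf6, which encodes the sensor itself, ran from 32.1 to 52.3 CPM (median 44.9) in lean and from 55.8 to 65 CPM (median 59.1) in obese libraries (log2 0.42 ± 0.10, adjusted p = 0.0201). Canx, the lectin chaperone calnexin, ran from 444 to 601 CPM (median 544) and from 607 to 713 CPM (median 640) (log2 0.27 ± 0.07, adjusted p = 0.0236). Neither overlapped between the groups, and the calls held in 15 and 14 of the 16 leave-one-out fits. Hyou1, an ER chaperone of the HSP70 family, was at log2 0.43 ± 0.11 (adjusted p = 0.0201, held in 15), and Hsp90b1, the ER member of the HSP90 family, at log2 0.32 ± 0.10 (adjusted p = 0.0416, held in 7). Rises in the list numbered 1 when young lean 26 was left out, 3 when young lean 27 was, and 1 when both young obese 1 and 2 were. With the length and GC offset it was 4, with a median of 0.21, but of the 5 genes only Dnajc3 was among them, beside Calr, Creld2 and Pdia4, and Atf6 was at log2 0.25 (adjusted p = 0.112). Of 39 genes of the integrated stress response and amino acid supply, 1 rose, the cationic amino acid transporter Slc7a1 (log2 0.56 ± 0.14, adjusted p = 0.0198, held in 15; adjusted p = 0.061 with the offset), and 0 fell.

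Genes that load cargo into COPII vesicles, the carriers from ER to Golgi, rose in 9 of 26 cases and fell in 0 (median log2 0.16). Sec23b (ENSMUSG00000027429), a subunit of the inner COPII coat, ran from 37 to 52.2 CPM (median 44.5) in lean and from 56.9 to 62.6 CPM (median 59) in obese libraries (log2 0.39 ± 0.07, adjusted p = 0.00884). All 8 obese libraries were above all 8 lean ones. The cargo receptor Lman1 rose by 0.25 ± 0.06 (adjusted p = 0.0156), with overlap, and like Sec23b it held in all 16 leave-one-out fits and without both young obese 1 and 2 (adjusted p = 0.0485 for Lman1, 0.0314 for Sec23b). Mia2 (log2 0.29 ± 0.08, adjusted p = 0.0246, held in 14) and Mia3 (log2 0.26 ± 0.07, adjusted p = 0.0337, held in 11), which help load large cargo such as procollagen, and the coat subunit Sec24a (log2 0.50 ± 0.14, adjusted p = 0.0311, held in 10) also rose. The count of rises was 2 without young lean 26 or 27, 3 without young lean 7 or young obese 1 or 2, 4 without young lean 23, 2 when both young obese 1 and 2 were left out, and 3 with the length and GC offset (Sec23a, Sec23b and Mia3). The offset ended the calls of Lman1 (log2 0.18, adjusted p = 0.123), Mia2 (0.23, 0.0556) and Sec24a (0.34, 0.095).

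Calcium pumps that fill these compartments rose. Atp2a2 (ENSMUSG00000029467), which encodes the ER calcium pump SERCA2, ran from 248 to 389 CPM (median 356) in lean and from 440 to 609 CPM (median 478) in obese libraries (log2 0.57 ± 0.09, adjusted p = 0.00884). Atp2c1, the Golgi calcium and manganese pump, ran from 58 to 79.5 CPM (median 72) and from 82.5 to 90.8 CPM (median 88.3) (log2 0.34 ± 0.07, adjusted p = 0.0106). Neither overlapped, and both held in all 16 leave-one-out fits and without both young obese 1 and 2, the pair in which Atp2a2 was highest at 609 and 608 CPM. With the length and GC offset Atp2a2 was at log2 0.43 (adjusted p = 0.00868) and Atp2c1 at 0.23 (adjusted p = 0.0502). Of the 16 genes of calcium pumps and channels tested these 2 rose, or 4 without YL512, and 1 fell, the store-operated channel subunit Orai3 (log2 -0.41 ± 0.11, adjusted p = 0.0245), whose call ended without young lean 7, 26 or 27 or young obese 1 or 2 and with the offset (adjusted p = 0.0554).

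**Figure D2:**
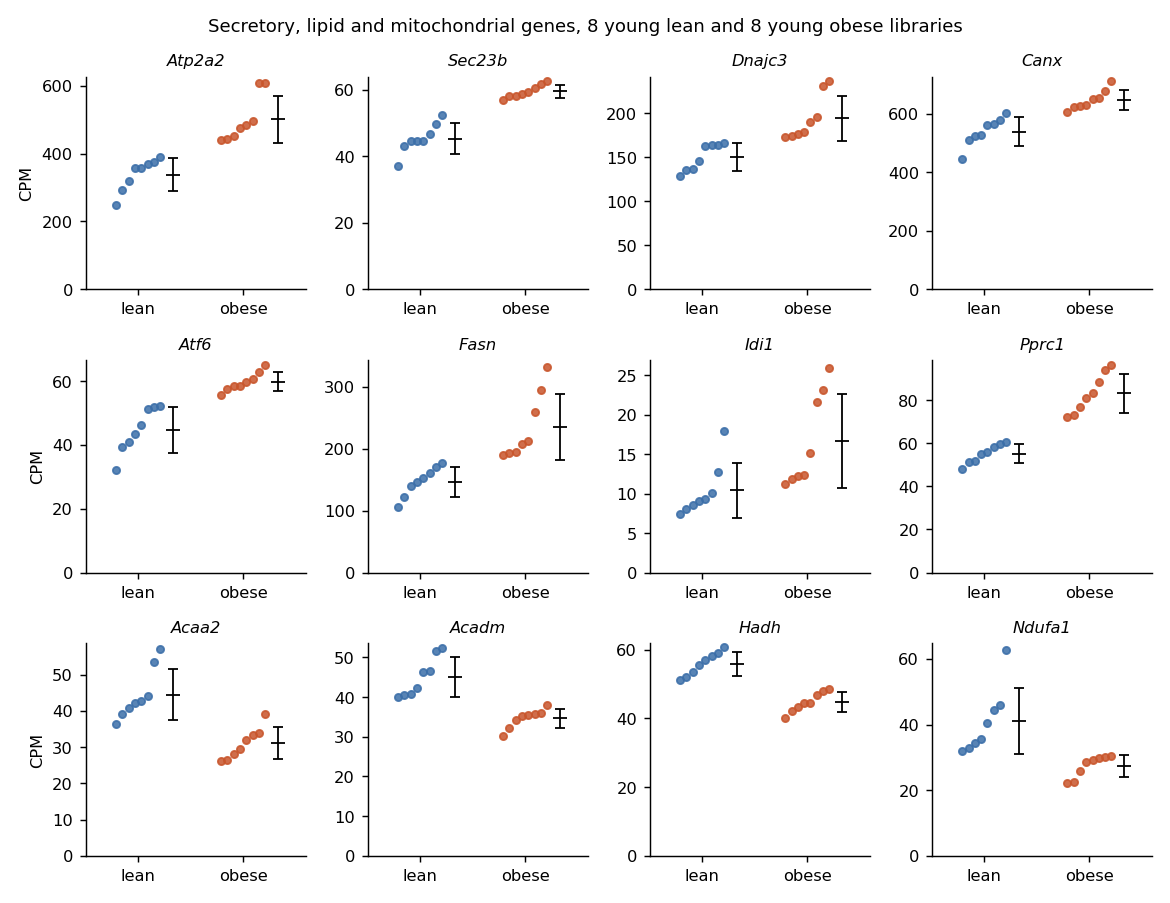
CPM of 12 genes in each of 8 young lean and 8 young obese libraries (1 point per library, sorted by value), with mean and SD at the right of each group. The groups are separate in 10 panels, and overlap for Idi1 and, between 36.3 CPM (lowest lean) and 39.3 CPM (highest obese), for Acaa2.

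Lipid genes moved in 2 directions. Fatty acid oxidation, the mitochondrial breakdown of fatty acids, had 10 of 22 genes lower and 0 higher (median log2 -0.25). Acaa2 (ENSMUSG00000036880), the thiolase of the last step of the cycle, ran from 36.3 to 57.1 CPM (median 42.6) in lean and from 26.2 to 39.3 CPM (median 30.8) in obese libraries (log2 -0.52 ± 0.09, adjusted p = 0.00884). Acadm, the medium-chain dehydrogenase of the first step, ran from 39.9 to 52.4 CPM (median 44.3) and from 30.3 to 37.9 CPM (median 35.3) (log2 -0.38 ± 0.08, adjusted p = 0.0136). Hadh, which acts between them, ran from 51.2 to 60.8 CPM (median 56.3) and from 40 to 48.5 CPM (median 44.4) (log2 -0.32 ± 0.07, adjusted p = 0.0156). Acadm and Hadh did not overlap between the groups, and all 3 calls held in every leave-one-out fit. Cpt1c, a carnitine palmitoyltransferase family member best known from neurons, was at log2 -0.52 ± 0.12 (adjusted p = 0.0162, held in 16) and Eci2, an enoyl-CoA isomerase, at -0.32 ± 0.09 (adjusted p = 0.027, held in 11). Hadha and Hadhb, the subunits of the trifunctional protein, were at log2 -0.03 and 0.04 (adjusted p = 0.811 and 0.691). The count of falls was 4 without young lean 7, 26 or 27 or young obese 1 or 20, 5 without young obese 21, 6 without young lean 23 or young obese 2 or 23, 2 without both young obese 1 and 2 and 3 with the length and GC offset, which ended the calls of Acadm (adjusted p = 0.0517) and Eci2 (0.0761) among those named.

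Fasn, the fatty acid synthase, was higher. It ran from 106 to 177 CPM (median 149) in lean and from 190 to 332 CPM (median 210) in obese libraries, with no overlap (log2 0.68 ± 0.15, adjusted p = 0.0146), and was highest in young obese 1. The call held in all 16 leave-one-out fits but not without both young obese 1 and 2 (adjusted p = 0.0618) or with the length and GC offset (log2 0.47, adjusted p = 0.065). It was the 1 called gene of 14 in fatty acid synthesis. Of 25 cholesterol genes 3 rose and 0 fell, and 21 had a positive log2 change (median 0.28). Among them was the isomerase Idi1 (log2 0.68 ± 0.21, adjusted p = 0.0424, held in 8), which ran from 7.36 to 17.9 CPM (median 9.23) in lean and from 11.2 to 26 CPM (median 13.8) in obese libraries, with overlap. The list had 0 rises without young lean 7, 26 or 27, without young obese 1, without young obese 2, without that pair together, and with the length and GC offset, 1 without young obese 22 and 7 without YL512.

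Of 17 genes of mature adipocytes tested, 2 fell and 0 rose, 14 had a negative log2 change, and the median was -0.69. The 2 were Pnpla2, which encodes the first lipase of fat droplets (log2 -0.29 ± 0.09, adjusted p = 0.0345, held in 8), and Gpd1, which supplies glycerol phosphate (log2 -1.34 ± 0.42, adjusted p = 0.0435, held in 5, mean below 1 CPM in both groups). Adipoq, which encodes adiponectin, was at 2.44 CPM in lean and 0.341 CPM in obese libraries (log2 -2.82, adjusted p = 0.0717). Lpl, which encodes lipoprotein lipase, ran from 117 to 1105 CPM in lean and from 147 to 752 CPM in obese libraries and was not called. The summed CPM of the list was 501 to 1569 in lean libraries, 1197 and 1008 in young obese 1 and 2 and 581 to 676 in the other 6 obese libraries. Their calls ended without any of young lean 7, 26 or 27 or young obese 1, 2, 22 or 23, and with the offset. The count of falls was 4 without young lean 1. Of 23 adipogenic regulators 0 were called in edgeR or DESeq2, and 0 had an unadjusted p below 0.05.

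Ribosomal and respiratory genes, whose transcripts are short, were lower in obese cells. Of 78 cytosolic ribosomal protein genes 57 fell and 0 rose, all 78 had a negative log2 change, and their median was -0.44. Their summed level ran from 60350 to 125117 CPM (median 82720) in lean and from 58640 to 65740 CPM (median 62783) in obese libraries. The groups overlapped through YL512 at 60350 CPM, the other 7 lean libraries lay above all 8 obese ones from 67023 CPM (young lean 1) upward, and the lean sum was highest in young lean 26, 27, 23 and 7, the libraries with the most negative length slopes. Of 75 nuclear genes of oxidative phosphorylation 41 fell and 0 rose (median -0.36), and of 75 mitochondrial ribosomal proteins 11 fell and 0 rose (median -0.22). The 8 tested genes of the mitochondrial genome had a median of -0.09, with 0 called in edgeR, 0 in DESeq2 and 0 at an unadjusted p below 0.05.

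Rps21, a small-subunit protein, was at 568 ± 223 CPM in lean and 346 ± 31 CPM in obese libraries (mean ± SD, log2 -0.72 ± 0.18, adjusted p = 0.0201, held in 15), with overlap. Rps19, whose loss causes a red cell aplasia, was at log2 -0.64 ± 0.16 (adjusted p = 0.0201, held in 15) and Rps12 at -0.59 ± 0.15 (adjusted p = 0.021, held in 14). Ndufa13 and Ndufa11, accessory subunits of complex I, were at -0.62 ± 0.15 (adjusted p = 0.0201, held in 15) and -0.53 ± 0.13 (adjusted p = 0.0222, held in 13), and Cox4i1, a subunit of complex IV, at -0.48 ± 0.12 (adjusted p = 0.0222, held in 13). Mrpl27, Mrps16 and Mrpl23 of the mitochondrial ribosome were at -0.40, -0.43 and -0.38 (adjusted p = 0.0198, 0.0218 and 0.0229, each held in 14). Without young lean 26, 1 ribosomal, 1 respiratory and 0 mitochondrial ribosomal genes fell. The counts were 4, 2 and 0 without young lean 7, 6, 4 and 3 without young lean 27, 19, 20 and 5 without young lean 23, 11, 7 and 3 without young obese 1, and 10, 10 and 4 without young obese 2. Ribosomal falls numbered 37, 22, 18, 28 and 34 without young obese 19, 20, 21, 22 and 23, respiratory falls 23 without young obese 21, and mitochondrial ribosomal falls 5 to 7 without young obese 19, 20, 21 or 23 and 23 without YL512. Without both young obese 1 and 2 the counts were 0, 0 and 0, with medians of -0.44 for ribosomal and -0.11 for mitochondrial ribosomal genes. With the length and GC offset 1, 1 and 2 of these falls were still called, with medians of -0.19, -0.09 and -0.06. They were Rps19 among the ribosomal genes, Atp5l among the respiratory ones, and Mrps16 and Mrpl23. The transcript length used was 2657 bases for Rps19, against a median of 1076 bases over its list. Mrps16 and Mrpl23 had 2572 and 3715 bases, against 1849 bases over theirs. Counts of ribosomal protein genes are uncertain gene by gene, since reads can be shared with their pseudogenes.

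Other metabolic genes of the smallest-p set can be given singly. Pprc1, a coactivator of the PGC-1 family that acts on nuclear genes of mitochondria, was higher, from 48 to 60.8 CPM (median 55.6) in lean to 72.4 to 96.3 CPM (median 82.4) in obese libraries, with no overlap (log2 0.60 ± 0.11, adjusted p = 0.00901). Khk, the kinase that admits fructose to glycolysis, was lower, from 9.29 to 18.8 CPM (median 13.3) to 6.86 to 9.38 CPM (median 8.07), touching at 9.29 and 9.38 (log2 -0.72 ± 0.14, adjusted p = 0.0114). Mgst3, a microsomal glutathione transferase, was at log2 -1.28 ± 0.27 (adjusted p = 0.0123). These 3 held in every leave-one-out fit and with the length and GC offset. Of 28 Nrf2 antioxidant genes 3 fell and 0 rose: the lipid peroxidase Gpx4 (log2 -0.50 ± 0.12, adjusted p = 0.0201, held in 13), superoxide dismutase Sod1 (-0.37 ± 0.10, adjusted p = 0.0252, held in 11) and the glutathione transferase Gsta3, at a mean of 0.416 CPM in lean and 0.101 CPM in obese libraries (adjusted p = 0.0238, held in 14). The count was 0 without young lean 7 or 26 and 1 without young lean 27. Gpx4 was at log2 -0.20 with the length and GC offset (adjusted p = 0.169), and Sod1 and Gsta3 remained called. The transcript length in the offset was 995 bases for Gpx4, 3970 for Sod1 and 2792 for Gsta3.

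**Figure D3:**
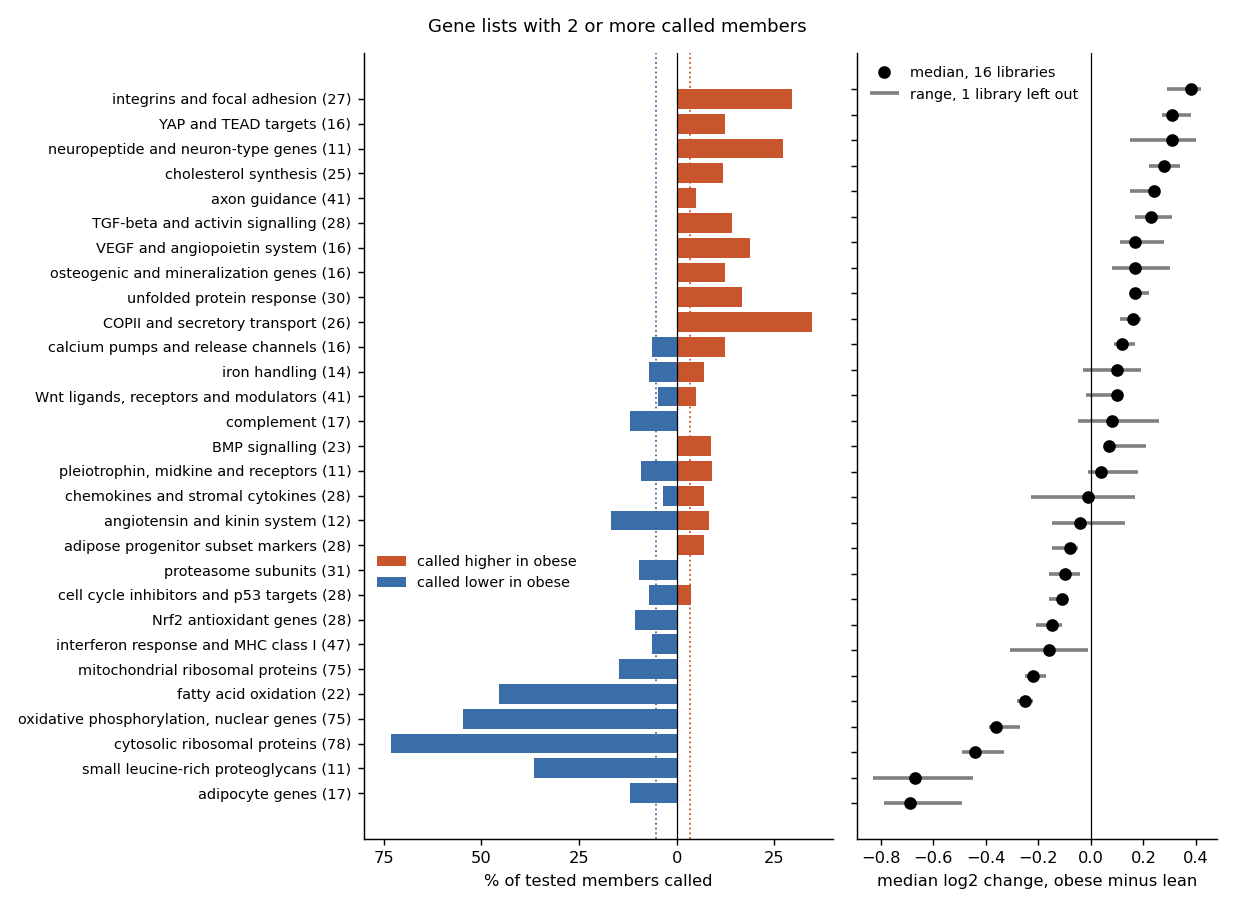
Lists with 2 or more called members, ordered by median log2 change, with the number tested in brackets. Left, percent of tested members called higher or lower (dotted lines, 3.46% and 5.37% over all genes); right, median log2 change (points) and its range with 1 library left out (bars). Focal adhesion genes have the highest median (0.38) and adipocyte genes the lowest (-0.69).

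Adhesion genes rose. Integrins bind the matrix and, through talin, kindlin and vinculin, couple it to actin at focal adhesions. Of 27 listed genes of this kind 8 rose and 0 fell (median log2 0.38). The integrin chain Itga2b was outside the list and fell, with no overlap (log2 -0.78 ± 0.16, adjusted p = 0.0122, held in 16). Lims1, the adaptor PINCH1, ran from 95.4 to 133 CPM (median 117) in lean and from 131 to 198 CPM (median 143) in obese libraries (log2 0.42 ± 0.09, adjusted p = 0.0123), overlapping through young obese 18 and YL512, and held in all 16 leave-one-out fits. Tln1, talin, ran from 354 to 551 CPM (median 523) and from 603 to 686 CPM (median 638), with no overlap (log2 0.38 ± 0.11, adjusted p = 0.0305, held in 12). Fermt2, kindlin-2, was at log2 0.50 ± 0.12 (adjusted p = 0.0201, held in 15), and Itgb1, the integrin beta 1 chain, at 0.26 ± 0.08 (adjusted p = 0.0347, held in 11). Vcl, vinculin, was at 773 and 726 CPM in young obese 1 and 2, between 246 and 316 CPM in the other 6 obese libraries and between 34 and 319 CPM in lean libraries (log2 1.12 ± 0.30, adjusted p = 0.027, held in 11). Without the 2 it was at log2 0.61 (adjusted p = 0.172). The count of rises was 1 without young lean 26, 2 without young lean 7 or 27 or young obese 1, 3 when young obese 2 was left out, and 5 without young lean 23 or young obese 21. Without both young obese 1 and 2 none of the 8 was called (0 of 8), and a different gene, Itga3, was. Fermt2, Lims1 and Vcl were called with the length and GC offset, while Tln1 was at log2 0.20 (adjusted p = 0.319) and Itgb1 at 0.24 (0.091).

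Neighbouring lists gave fewer calls. All 16 targets and cofactors of YAP, a transcriptional regulator that responds to tension, had a positive log2 change (median 0.31), and 2 rose, Crim1 (88.4 to 155 CPM in lean and 163 to 253 CPM in obese libraries, no overlap, log2 0.64 ± 0.15, adjusted p = 0.0177, held in 16) and Tead1 (log2 0.53 ± 0.16, adjusted p = 0.0372, held in 9). The count was 4 without YL512 and 1 without young lean 7, 23, 26 or 27 or young obese 1, 2 or 22. It was 0 with the length and GC offset (Crim1 at adjusted p = 0.0563, Tead1 at log2 0.32 and 0.0532), in a list with a median transcript length of 4346 bases. Cemip2, a hyaluronan-degrading enzyme, rose by 0.65 ± 0.16 with no overlap (adjusted p = 0.0201, held in 15), or 0.48 with the offset (adjusted p = 0.0785). Of 16 mural and smooth muscle genes, 29 collagen chains and 18 basement membrane genes 0 were called, against 5, 3 and 5 at an unadjusted p below 0.05. DESeq2 called 1 mural gene lower, 0 collagens and 1 basement membrane gene higher.

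Small leucine-rich proteoglycans, which bind collagen fibrils, were split. Of 11 tested, 4 fell and 0 rose (median -0.67): Omd (log2 -1.81 ± 0.41, adjusted p = 0.0151, held in 16), Ogn (-1.31 ± 0.37, adjusted p = 0.0303, held in 11), Lum (-2.69 ± 0.76, adjusted p = 0.0313, held in 9, below 2 CPM in all 16 libraries) and Aspn (-1.91 ± 0.61, adjusted p = 0.0469, held in 2). Aspn, Omd and Ogn lie side by side on chromosome 13 next to Ecm2 (log2 -0.67, adjusted p = 0.19). Ogn ran from 22.7 to 206 CPM (median 149) in lean and from 32 to 70.7 CPM (median 45.9) in obese libraries, with the lowest value of all in young lean 1. Aspn lay between 4.77 CPM (young lean 1) and 159 CPM (young lean 27) and ran from 1.39 to 27 CPM in obese libraries. Bgn, the most abundant of the list at 5825 and 6195 CPM, was at log2 0.09 (adjusted p = 0.706). The count of falls was 1 without young lean 26 or 27 or young obese 21 or 22, 2 without young lean 7 or young obese 1, 2 or 20, 0 without both young obese 1 and 2, and 1 with the offset (Omd).

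Transcripts of single genes in several signalling families were called. Activins and TGF-beta are dimers that act through SMAD proteins, and follistatin-type proteins bind activins. Of 28 genes of this family 4 rose (14.3%, against 3.46% of all genes tested) and 0 fell (median 0.23). Inhbb, the activin beta B subunit, ran from 54.4 to 98.8 CPM (median 66) in lean and from 105 to 138 CPM (median 113) in obese libraries (log2 0.70 ± 0.16, adjusted p = 0.0151). The groups did not overlap, and the call held in all 16 leave-one-out fits. Without young obese 1 and 2 Inhbb was at log2 0.74 (adjusted p = 0.0485). Inhba, the beta A subunit, rose by 1.32 ± 0.40 (adjusted p = 0.0397, held in 8) and Fstl3, a follistatin-type inhibitor, by 0.74 ± 0.22 (adjusted p = 0.0343, held in 11). The count was 2 without young lean 7, 26 or 27 or young obese 1 or 2, and 1 without the pair. With the offset it was 3, and Inhba was at adjusted p = 0.0633.

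BMP and Wnt genes gave single calls. Bmpr1b (ENSMUSG00000052430), a type I BMP receptor, ran from 3.45 to 9.98 CPM (median 7.58) in lean and from 10.6 to 17.1 CPM (median 14.5) in obese libraries, with no overlap (log2 0.94 ± 0.17, adjusted p = 0.00884, held in 16). Of 23 BMP genes 2 rose (8.7%, against 3.46% of all genes tested), Bmpr1b among them, and 0 fell. The count was 4 without young lean 1 or YL512 and 1 without young lean 7, 25, 26 or 27 or young obese 1, 2, 21 or 22. Of 41 Wnt genes 2 rose and 2 fell (4.88% each). These shares were near the 3.46% higher and 5.37% lower over all genes tested. Rspo2, a secreted enhancer of Wnt receptors, ran from 3.25 to 18.9 CPM (median 9.45) and from 1.08 to 4.02 CPM (median 2.83), with overlap (log2 -1.86 ± 0.34, adjusted p = 0.00884). Nkd2, an intracellular Wnt inhibitor, rose from 5.09 to 12.7 CPM (median 9.6) to 10.9 to 26.6 CPM (median 19), with overlap (log2 1.03 ± 0.24, adjusted p = 0.0177). Both held in every leave-one-out fit. Znrf3, a ligase that removes Wnt receptors, rose by 0.64 ± 0.18 (adjusted p = 0.0306, held in 10) and the decoy Sfrp4 fell by 1.53 on the log2 scale (adjusted p = 0.0405, held in 6). Sfrp4 was at 4.73 and 4.93 CPM in young obese 1 and 2 and at 0.542 to 1.77 CPM in the other 6, and its call ended without young lean 7, 25, 26 or 27 or any one of those 6. Bmpr1b, Rspo2 and Nkd2 remained called with the length and GC offset, and Znrf3 (adjusted p = 0.0708) and Sfrp4 (0.0575) did not.

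Growth factor and peptide genes included the largest changes. Ptn (ENSMUSG00000029838), pleiotrophin, lay between 6.07 CPM (young lean 23) and 45.5 CPM (young lean 7), with a median of 18.1, and from 1.57 to 3.51 CPM (median 2.35) in obese libraries, with no overlap (adjusted p = 0.00972), while its receptor Sdc3 rose by 0.60 ± 0.17 (adjusted p = 0.0303, held in 11). Sdc3 was highest in young obese 1 and 2 (440 and 393 CPM) and at log2 0.31 without them (adjusted p = 0.182). Agt, angiotensinogen, ran from 5.48 to 65 CPM (median 20.7) and from 2.38 to 9.04 CPM (median 5.07), with overlap through young lean 1 and 23. Kng1, the kinin precursor, fell by 1.44 (log2, adjusted p = 0.0451, held in 4) and Lnpep, an aminopeptidase that binds angiotensin IV, rose by 0.68 ± 0.22 (adjusted p = 0.047, held in 5), in a list of 12. Ptn and Agt remained called with the length and GC offset, while Sdc3 (adjusted p = 0.0538), Kng1 (0.095) and Lnpep (0.0666) did not.

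In the VEGF and angiopoietin system 3 of 16 genes rose and 0 fell: the receptors Flt1 and Flt4 (log2 0.76 ± 0.23, adjusted p = 0.0372, held in 8) and the ligand Vegfc (0.69 ± 0.21, adjusted p = 0.0421, held in 6). Flt1 was at 26.5 and 26.2 CPM in young obese 1 and 2, at 4.44 CPM in young obese 22, at 12.1 to 15.4 CPM in the other 5 and at 2.49 to 8.46 CPM in lean libraries. Rises in the list numbered 1 without young lean 7, 25, 26 or 27 or young obese 1, 2 or 22. Of the 7 tested genes of a wider endothelial list 1 fell and 0 rose, the former being Egfl7 (log2 -0.57 ± 0.14, adjusted p = 0.0224, held in 14), at a mean of 3.8 CPM in lean and 2.56 CPM in obese libraries. Of 11 neuropeptide and neuron-type genes 3 rose and 0 fell. Vgf, a neuropeptide precursor, ran from 1.49 to 12.9 CPM (median 8.03) and from 10.8 to 33.1 CPM (median 21.9), with overlap through young obese 22. Gdnf, a neurotrophic factor, ran from 2.64 to 7.64 CPM (median 5.84) and from 9.16 to 17.8 CPM (median 12.1), with no overlap (log2 1.12 ± 0.28, adjusted p = 0.0201, held in 15), and Nefm, a neurofilament, rose by 0.75 ± 0.22 (adjusted p = 0.0372, held in 8). The count of this list was 1 without young lean 26. The offset ended the calls of Flt4 (adjusted p = 0.0996), Egfl7 (0.103) and Nefm (0.0555).

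**Figure D4:**
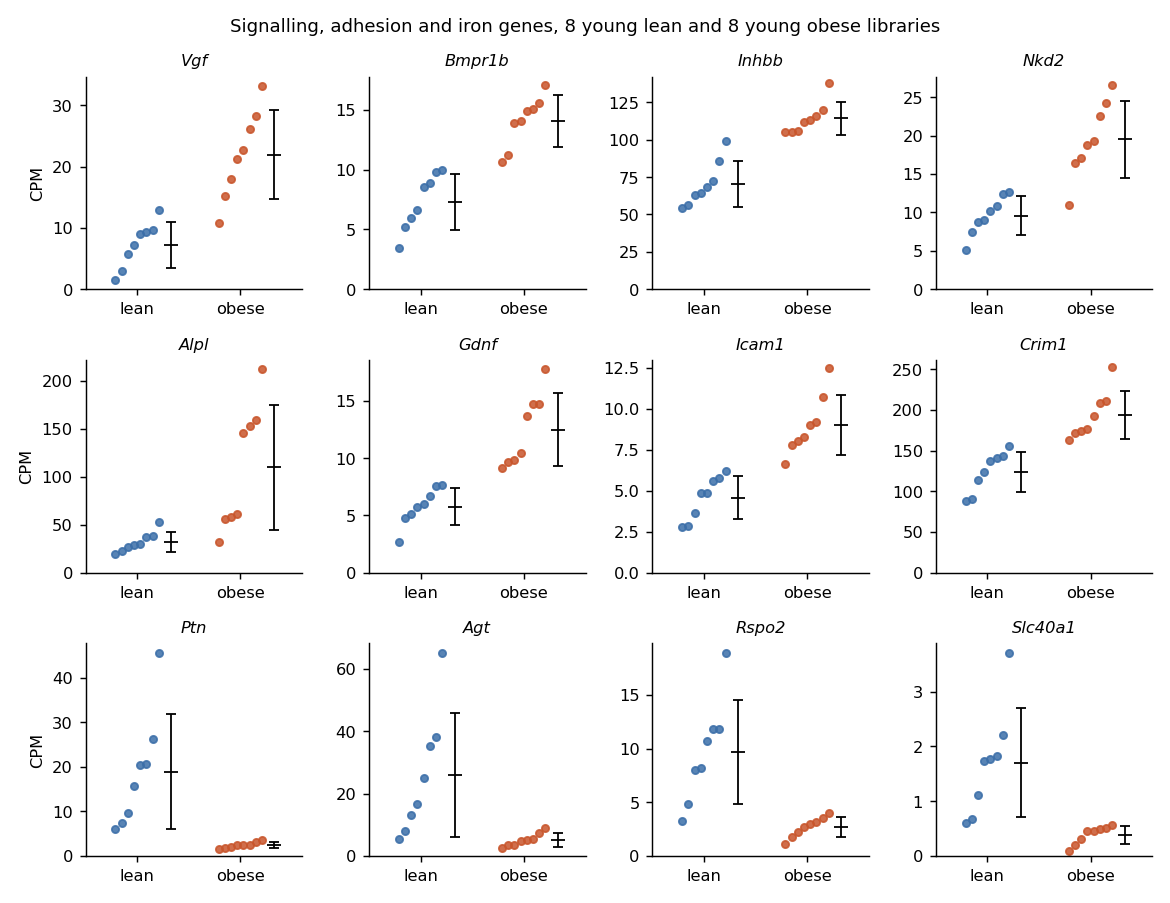
CPM of 12 genes in each of 8 young lean and 8 young obese libraries (1 point per library, sorted by value), with mean and SD at the right of each group. Obese libraries of Ptn lie between 1.57 and 3.51 CPM, below the lowest lean library (6.07), and obese libraries of Slc40a1 lie between 0.0882 and 0.568 CPM, below the lowest lean library (0.6).

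A few single guidance and bone genes were called higher. Plxna1, a semaphorin receptor, ran from 126 to 234 CPM (median 207) in lean and from 280 to 329 CPM (median 298) in obese libraries, with no overlap (log2 0.59 ± 0.11, adjusted p = 0.00901), and Plxnc1 rose by 0.99 ± 0.24 (adjusted p = 0.0195). They were 2 of 41 axon guidance genes (4.88%, near the 3.46% of all genes tested), with 0 lower. Both held in all 16 leave-one-out fits, and without young obese 22 the list had 4 higher and 1 lower. With the length and GC offset 1 of these 2 plexin genes remained called, Plxna1, and Plxnc1 was at log2 0.79 (adjusted p = 0.091). The median transcript length of the list was 5930 bases. Draxin, a secreted guidance protein, rose by 1.38 ± 0.33 (adjusted p = 0.0198, held in 15, lost without young lean 26). Alpl, tissue alkaline phosphatase, was at 146 to 212 CPM in young obese 18, 19, 20 and 21, at 31.8 to 60.8 CPM in the other 4 obese libraries and at 19.7 to 52.4 CPM in lean libraries (log2 1.79 ± 0.41, adjusted p = 0.0151). Sp7, the osteoblast factor osterix, ran from 2.8 to 9.85 CPM (median 6.25) and from 4.7 to 21.8 CPM (median 16.1) (log2 1.23 ± 0.30, adjusted p = 0.0201). They were 2 of 16 osteogenic genes (12.5%), 0 fell, and both held in all 16 leave-one-out fits. Without both young obese 1 and 2 Sp7 was at adjusted p = 0.0547.

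Immune and iron genes were mostly not called. Slc40a1, ferroportin, the exporter of cellular iron, ran from 0.6 to 3.7 CPM (median 1.76) in lean and from 0.0882 to 0.568 CPM (median 0.455) in obese libraries, with no overlap (log2 -2.14 ± 0.40, adjusted p = 0.00901), and held in every leave-one-out fit. Ncoa4, which sends ferritin to autophagy, rose by 0.50 ± 0.16 (adjusted p = 0.0482, held in 7), and the other 12 of 14 iron genes were not called. Icam1, an adhesion receptor for leukocytes, ran from 2.81 to 6.22 CPM (median 4.86) and from 6.66 to 12.5 CPM (median 8.64), with no overlap (log2 0.97 ± 0.23, adjusted p = 0.0182, held in 16). Csf1, the macrophage growth factor, rose by 0.46 ± 0.12 (adjusted p = 0.0255, held in 14), at 1475 ± 222 CPM in lean and 2028 ± 319 CPM in obese libraries (mean ± SD). Of 47 interferon and MHC class I genes 3 fell (6.38%, near the 5.37% of all genes tested) and 0 rose. The immunoproteasome subunit Psmb10 was at log2 -0.54 ± 0.12 (adjusted p = 0.0151, held in 16). Ifi35 was at -0.55 ± 0.16 (adjusted p = 0.0319, held in 10). B2m was at -0.33 ± 0.10 (adjusted p = 0.0454, held in 2). Of 31 proteasome subunits 3 fell (9.68%), led by Psmb1 (-0.34 ± 0.09, adjusted p = 0.0247, held in 11). The count was 0 without young lean 7, 26 or 27 or young obese 1 or 2. Of 17 complement genes 2 fell (11.8%). These were the regulators Cd46 (-1.07 ± 0.30, adjusted p = 0.0314, held in 9) and Cd59a (-0.52 ± 0.16, adjusted p = 0.0376, held in 6). Interferon falls numbered 7 without young lean 1, 6 without YL512 and 1 without young lean 7, 26 or 27 or young obese 1, 2 or 21. Without both young obese 1 and 2 none of the 3 interferon and MHC class I genes was called, and 3 others of that list fell (Ifit3, Irf7 and Rtp4). With the length and GC offset 0 interferon and MHC class I and 0 proteasome genes were called: B2m was at log2 -0.03 (adjusted p = 0.885), Ifi35 at -0.32 (0.127), Psmb10 at -0.30 (0.0996) and Psmb1 at -0.21 (0.0883). The offset also ended the calls of Cd59a (adjusted p = 0.158), Csf1 (0.0654) and Ncoa4 (0.0641).

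Cdkn2a and Trp53inp1 fell in a list of cell cycle inhibitors and p53 targets, while proliferation genes were not called. Cdkn2a, which encodes p16 and p19ARF, ran from 29.2 to 94.3 CPM (median 49.9) in lean and from 18.5 to 35.3 CPM (median 24.4) in obese libraries, with overlap (log2 -1.11 ± 0.25, adjusted p = 0.0151, held in 16). Trp53inp1, a p53 target, was at log2 -0.80 ± 0.22 (adjusted p = 0.0275, held in 12). Of 28 inhibitors and p53 targets these 2 fell (7.14%, against 5.37% of all genes tested) and 1 rose, with a median log2 change of -0.11. Falls numbered 4 without young lean 1 or YL512, and 1 without young lean 7, 26 or 27 or young obese 21. Of 54 proliferation and replication genes 51 had a positive log2 change and the median was 0.37, yet 0 were called in edgeR or DESeq2 and 1 had an unadjusted p below 0.05. Their summed level was 1322 to 2831 CPM in lean libraries, 1318 and 1297 CPM in young obese 1 and 2, 4287 CPM in young obese 22 and 2676 to 3116 CPM in the other 5. Mki67, a marker of cycling cells, was at 89.9 CPM in lean and 127 CPM in obese libraries (log2 0.50, adjusted p = 0.527). Myc, a growth regulator, rose by 0.47 ± 0.14 (adjusted p = 0.034, held in 11), Igf1r, the receptor of insulin-like growth factors, by 0.39 ± 0.12 (adjusted p = 0.0372, held in 7) and the clock factor Clock by 0.61 ± 0.13 (adjusted p = 0.0123, held in 16). With the offset Igf1r was at log2 0.14 (adjusted p = 0.538) and Cdkn2a at -0.76 (0.054), and Clock, Myc and Trp53inp1 remained called.

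Most of the remaining genes of the naming rule fall in no list. Among rises, Parm1, an androgen-regulated membrane protein, ran from 12 to 45.5 CPM (median 27.6) in lean and from 43.4 to 96.9 CPM (median 73.7) in obese libraries, overlapping through young lean 23 and young obese 22. Jph1, which ties the ER to the plasma membrane (log2 0.86 ± 0.17, adjusted p = 0.0104), Hs6st2, a heparan sulfate sulfotransferase (0.62 ± 0.12, adjusted p = 0.00901), Nav2, a cytoskeletal navigator protein (1.06 ± 0.25, adjusted p = 0.0177), Plcxd2 (1.07 ± 0.25, adjusted p = 0.0162) and the ribosome quality control factor Nemf (0.32 ± 0.06, adjusted p = 0.00901, no overlap) held in all 16 leave-one-out fits. Lrp2, the endocytic receptor megalin (1.38 ± 0.34, adjusted p = 0.0201), held in 15 and the gap junction gene Gjb2 (1.13 ± 0.32, adjusted p = 0.0322) in 9. The length and GC offset ended the calls of Nav2 (adjusted p = 0.0531) and Lrp2 (0.0892).

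Among falls, Ctla2a, a cysteine protease inhibitor, ran from 9.68 to 55.3 CPM (median 32.8) in lean and from 6.32 to 13.5 CPM (median 9.9) in obese libraries, overlapping through young lean 1. Rex1bd (log2 -0.68 ± 0.12, adjusted p = 0.00884), the nucleoside triphosphatase Ntpcr (-0.49 ± 0.09, adjusted p = 0.00884, no overlap), Fbxw9 (-0.82 ± 0.16, adjusted p = 0.00901), the mitochondrial nucleotide hydrolase Hint2 (-0.76 ± 0.15, adjusted p = 0.00901) and the platelet integrin chain Itga2b (-0.78 ± 0.16, adjusted p = 0.0122) held in all 16 leave-one-out fits. Other large falls held in fewer: Lrrc17 (-1.16 ± 0.33, adjusted p = 0.0337) in 8, and Vit, a matrix protein (-1.85 ± 0.57, adjusted p = 0.0425), Klhdc8b (-1.14 ± 0.34, adjusted p = 0.038) and the imprinted amino acid transporter Slc38a4 (-1.26 ± 0.38, adjusted p = 0.0373) in 5 each. Plagl1, an imprinted zinc finger gene, ran from 1.8 to 9.9 CPM (median 2.88) in lean and from 1.45 to 2.64 CPM (median 2.02) in obese libraries (adjusted p = 0.0446, held in 3). It was the 1 called gene of 18 imprinted growth genes (5.56%, near the 5.37% of all genes tested that were lower). Slc38a4 was at 52 CPM in YL512 and between 6.35 and 11.2 CPM in the other 7 lean libraries, and its call ended without that library, as without 10 others. The length and GC offset ended the calls of Lrrc17, Vit, Slc38a4 and Klhdc8b (adjusted p = 0.0501 to 0.0785).

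Keyword genes of the study were not called in young mice. Cd44, the hyaluronan receptor, was at log2 0.39 ± 0.26 (adjusted p = 0.326), the ERK phosphatase Dusp6 at 0.45 ± 0.33 (adjusted p = 0.385; 0.03 without young obese 1 and 2, and 0.21 to 0.73 with 1 library left out), Itih2, a hyaluronan-binding chain, at -0.51 ± 0.26 (adjusted p = 0.193) and Nfatc2, at 0.461 CPM or less in all 16 libraries, at adjusted p = 0.813. Aff1, matched to a keyword that the series spells differently, was at 0.46 ± 0.20 (adjusted p = 0.131). Of the sorted markers, Ly6a, which encodes Sca-1, ran from 700 to 1254 CPM (median 816) in lean and from 550 to 811 CPM (median 741) in obese libraries (log2 -0.36 ± 0.22, adjusted p = 0.303), and Cd34 was at log2 -0.51 ± 0.81 (adjusted p = 0.715). Cd34 was at -2.73 without young obese 1 and 2, its 2 highest obese libraries (adjusted p = 0.0667), at -1.14 to -0.28 with 1 library left out, and at -2.21 with voom quality weights, where it was called (adjusted p = 0.00385). Quality weights also called Itih2 (-0.69, adjusted p = 0.00292) and Aff1 (0.44, adjusted p = 0.00743), and a term for the range of mouse numbers called Aff1 (0.59, adjusted p = 0.0264).

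Obesity in mice of 52 weeks, tested in other libraries of the same fit, gave 32 calls (0.222% of 14438). The difference between the 2 obesity effects was called for 1 gene (0.00693%) in edgeR, and at an unadjusted p below 0.05 for 1155 genes; limma voom called 1 and DESeq2 7. The gene was Ccl9, a chemokine that attracts myeloid cells. In young cells it was lower with obesity, from 30.1 to 88.7 CPM (median 40.6) to 21.1 to 38.5 CPM (median 28) (log2 -0.63 ± 0.20, adjusted p = 0.0425, held in 4 of the 16 leave-one-out fits, adjusted p = 0.0818 with the offset). At 52 weeks it was higher, from 16.2 to 34.8 CPM (median 31.4) in 8 lean to 43.9 to 91.2 CPM (median 60.3) in 6 obese libraries, with no overlap (log2 1.15 ± 0.21, adjusted p = 0.0113). The difference of effects was -1.78 ± 0.29 (adjusted p = 0.0131). Aged obese mice had eaten the high-fat food for longer, so age and time on the diet cannot be told apart here. Of the lead genes, Atp2a2 was at log2 0.22 (adjusted p = 0.368), Sec23b at 0.19 (adjusted p = 0.24) and Ptn, Rspo2 and Acaa2 were not called in aged mice. That a gene passed at 20 weeks and not at 52 does not show that the effects differ: the difference was at adjusted p = 0.598 for Atp2a2 and 0.621 for Sec23b.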

How the data were processed

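RNA of 30 cell cultures, 1 per mouse, was sequenced. The authors deposited a table of read counts per gene, with 38561 genes (36639 with a symbol) and 5 lines that name no gene. The tools named per the submitters' processing notes are DESeq2 1.12.4, HTSeq 0.7.0 and STAR, with no role for each. Build, annotation and strand setting are not given in the sources used here, and overlapping and antisense genes cannot be told apart. The 5 lines, of which reads in no feature were 3.94% to 8.75% and ambiguous reads 2.69% to 3.41% of a library, were left out.

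Counts were fitted with edgeR 4.0.16 (R 4.3.3) by its quasi-likelihood test: filterByExpr by group, TMM scaling, a term for each of 4 groups over all 30 libraries, and Benjamini-Hochberg adjustment over 14438 genes. Obese minus lean is the young contrast, and SE is the log2 change divided by the square root of F. CPM are TMM-scaled, without a prior count. Every library is a separate mouse, yet closely similar libraries may share a culture or sequencing step, which no label states. The 60 gene lists, the members and the rule for naming genes were chosen with earlier results of these data known. The rule took the 15 largest rises and falls and the 10 smallest p in each direction among called genes that averaged 4 CPM or more, up to 5 called members of each list, and keyword and sort genes; a few genes it picked are counted but not reported here. Transcript length and GC content were those of each gene's longest transcript in the reference annotation, matched by gene identifier for 14297 genes. The offset was a smooth term from mgcv 1.9.3. Promoter sequences are from RefSeq (GRCm38.p6) and were matched by symbol. Alternatives were limma voom (3.58.1), DESeq2 1.42.0, other scaling, no filter, the 16 young libraries alone, the offset, a term for the range of mouse numbers, and libraries left out. The edgeR step was tested on simulated counts, drawn independently for each library and without a length trend. That simulation therefore does not cover closely similar libraries or length dependence.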

Additional observations from a re-analysis of the deposited data

Results flagged for a closer look

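In each group of 8 young libraries, the values of the genes described were checked for a highest or lowest library that lies far from its neighbour relative to the range of the group. Of 282 groups 30 (10.6%) had such a library, where chance flags about 1 in 20. Young lean 26 was the highest lean library for Rex1bd (45.7 CPM), Fbxw9 (66.2 CPM), Hint2 (25 CPM), Ndufa1 (62.7 CPM), Psmb10 (38 CPM), Ndufa13 (187 CPM), Rpl38 (588 CPM) and Ndufa2 (217 CPM), and the lowest for Plxna1 (126 CPM). YL512, as the labels abbreviate this young lean mouse, was the highest for Draxin (10.3 CPM), Slc38a4 (52 CPM), Vegfc (6.61 CPM), Ccl9 (88.7 CPM), Gpd1 (2.39 CPM) and Kng1 (13.5 CPM). Young lean 27 was the highest for Omd (11.3 CPM) and Aspn (159 CPM), young lean 7 for Gsta3 (1.33 CPM) and Vit (39.3 CPM), and young lean 1 for Nav2 (26.6 CPM).

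Among obese libraries, young obese 22 stood highest for Rex1bd (20.3 CPM), Inhbb (138 CPM) and Cd44 (413 CPM) and lowest for Klhdc8b (3.12 CPM). Young obese 1 was highest for Kng1 (5.5 CPM) and lowest for Ly6a (550 CPM), young obese 2 was highest for Vit (7.99 CPM) and Nrep (0.954 CPM), young obese 18 for Hint2 (10 CPM) and young obese 23 for C1ql3 (1.39 CPM). Ccl9 was marked for a second reason: its obesity effect at 20 weeks differed from that at 52 weeks by -1.78 on the log2 scale in a test of the difference itself.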

How the results depend on the processing

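The 1275 calls became 371 with no filter on low counts, 377 with the length and GC offset, 2952 with a term for the range of mouse numbers, 143 without young obese 1 and 2 and 4266 with voom quality weights, and 201 to 2197 with 1 library left out. The call of 1 gene for the difference between young and aged effects became 3 with the offset, 4 with the number range term, 4 with only libraries 18 to 27, 4 without young obese 1 and 2, 91 with quality weights and 7 in DESeq2, and 1 to 3 with 1 library left out. The length slope difference was 0.0814 without young obese 1 and 2, and 0.0885 to 0.140 with 1 library left out. Nfatc2, at 0.51, was at -0.00 without that pair. The cause of these moves was not tested, beyond the number of libraries and genes each setting holds. Of the 118 reported calls, DESeq2 ended 0, RLE scaling 2, voom 19 and the fit of the 16 young libraries 16. No scaling moved the median of all genes by more than 0.03 on the log2 scale.

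Young lean and young obese mice share only the numbers 1 and 23. The deviations of same-numbered libraries correlated at 0.082 and 0.215, and no label says that a number marks a shared animal, litter or day, so these libraries share only a number. The replicate block was fitted to young lean 1 and 23 and young obese 1 and 23 only, not to all 16 young libraries. In that small fit 0 genes were called. Directions turned under the block for Agt (0.02), Omd (0.01), Trp53inp1 (0.04), Ogn (0.78), Nefm (-0.08), Klhdc8b (0.07), Kng1 (0.21), Aspn (0.94) and Cd34 (0.37), all as log2 changes.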

Other observations

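Some calls outside the naming rule held in all 26 alternatives other than the replicate block, as 59 calls did in all, 20 higher and 39 lower. They were chosen after their values were seen. Actn1, an actin crosslinker of stress fibres, ran from 331 to 818 CPM (median 655) in lean and from 927 to 1074 CPM (median 1014) in obese libraries (log2 0.67 ± 0.15, adjusted p = 0.0138). Myh9, the heavy chain of non-muscle myosin IIA, ran from 891 to 1825 CPM (median 1470) and from 1927 to 2232 CPM (median 2071) (log2 0.55 ± 0.12, adjusted p = 0.0123). Actn4, a relative of Actn1 at the cell edge, was at log2 0.55 ± 0.12 (adjusted p = 0.0126). None of the 3 overlapped between the groups. Atl2, which fuses ER tubules, rose by 0.35 ± 0.08 with no overlap (adjusted p = 0.0123), and Baz1a, a subunit of chromatin remodelling complexes, by 0.76 ± 0.16 with no overlap (adjusted p = 0.0123).

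Among the falls, Cyba, the p22phox subunit of NADPH oxidases, ran from 85.5 to 205 CPM (median 112) in lean and from 70.5 to 84.5 CPM (median 77.2) in obese libraries, with no overlap (log2 -0.68 ± 0.14, adjusted p = 0.0123). Alox5ap, which presents arachidonic acid to 5-lipoxygenase, ran from 2.08 to 3.43 CPM (median 2.94) and from 1.18 to 1.9 CPM (median 1.53), again apart (log2 -0.86 ± 0.19, adjusted p = 0.0136). Ephx1, the microsomal epoxide hydrolase (log2 -0.55 ± 0.11, adjusted p = 0.0123), Mgmt, which repairs alkylated guanine (-0.79 ± 0.17, adjusted p = 0.0126), and Cyp27a1, a sterol hydroxylase near 1 CPM (-1.20 ± 0.27, adjusted p = 0.0151), fell with overlap. Transcripts of low level also fell: Nrep at log2 -2.27 ± 0.52 (adjusted p = 0.0153) and Sybu, a kinesin adaptor, at -1.63 ± 0.31 (adjusted p = 0.00901).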
